A study of Mus musculus with 6 samples.

Results

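The genes described here encode the enzymes of cholesterol synthesis and of fatty acid synthesis, together with proteins that control both. They were taken by symbol from a table of raw read counts per gene, and all 38 listed symbols were found among its 55418. Of these, 18 form the sterol arm, which runs from the thiolase Acat2 to the last reductase Dhcr7. Another 14 form the fatty acid arm, from the supply of acetyl-CoA and NADPH to elongation and desaturation. The remaining 6 are regulators, with the sterol carrier Stard4 counted among them.

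MOC2, the source of the RNA, is a line of mouse oral squamous carcinoma that carries no papillomavirus. The libraries were 3 of CRISPR control cells and 3 labelled EphA4 knockout, taken from 1 clone named H3, so that the clone and the edit cannot be told apart. The labels do not say whether the control cells were a clone. Both groups were untreated, were passaged 2 times after thawing, carried the same batch label and grew in medium with serum, EGF, hydrocortisone and insulin. The study asked how the loss of the receptor EphA4, which its title places upstream of AKT, changes RNA in these cells.

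Cholesterol and fatty acids are both built from acetyl-CoA in the cytosol. SREBP transcription factors are made as precursors held in the endoplasmic reticulum by Insig proteins. When sterols are scarce, Scap carries the precursors to the Golgi, where they are cut and released to the nucleus. Srebf2 is best known for driving sterol genes and Srebf1 for driving fatty acid genes, and in many cells insulin and AKT signalling raise SREBP activity. Tumour cells commonly make their own fatty acids for membranes.

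Each library held between 35115926 and 41775031 counts. The targeted gene Epha4 was higher, not lower, in the libraries labelled EphA4 knockout. It had 51.4, 59.8 and 54.0 CPM in control and 97.4, 103 and 98.1 CPM in the labelled libraries (CPM are counts scaled to library size with TMM factors), which is a log2 fold change of 0.86 (SE 0.06, edgeR's quasi-likelihood F test with Benjamini-Hochberg adjusted p = 2.1e-06). Counts summed over a gene say nothing of its edited bases or its protein, so every change below refers to libraries by their label. Epithelial markers fitted the labelled cell type in part, since Krt8, Krt18, Epcam and Cdh1 were abundant while Krt5 had 2 counts and Trp63 4 counts in all 6 libraries. Summed adipocyte markers, relevant to lipid genes, reached at most 5.23 CPM in any library, with Lep at 0. Summed fibroblast markers ran from 48.2 to 51.7 CPM in control and from 1.91 to 2.03 CPM in the labelled libraries, with Lum at 0 in all 6 libraries. The 5 tested fibroblast markers were all lower. Col1a2, not tested, went the other way, with 4, 0 and 1 counts in control and 8, 11 and 10 in the labelled libraries. Summed leukocyte markers ran from 17.5 to 19.9 CPM in control and from 4.41 to 4.90 CPM in the labelled libraries. Most of this was Cd68 (-2.10 on the log2 scale), and Cd3e, Itgam and Adgre1 were at 0. The leukocyte gene Ptprc, not tested, had 3, 1 and 10 counts in control and 18, 16 and 7 in the labelled libraries. Of 7 tested epithelial markers 4 were higher and 3 lower. On the log2 scale Krt6a (2.80, from a mean of 0.271 CPM), Krt8 (0.29), Krt18 (0.19) and Cdh1 (0.14) rose. Krt17 (-1.45), Krt14 (-1.03) and Epcam (-0.61) fell. The part of these markers in the results below was not tested. In bulk RNA, fewer cells of a type and less RNA per cell cannot be told apart. EphA4 knockout replicate 3 stood apart: processed pseudogenes took 1.49% of its counts and 0.285% to 0.345% elsewhere, and it was the lowest of its group for 21 of the 38 genes.

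Genes of both arms moved in both directions, and the typical size of the change was larger in the fatty acid arm. In fatty acid synthesis 8 of 14 genes rose, 5 fell and 1 did not pass an adjusted p of 0.05 in edgeR. In sterol synthesis 9 of 18 rose, 7 fell and 2 did not pass, and of the 6 regulators 2 rose and 2 fell. Over all 15199 genes tested, 71.5% passed, 32.7% as higher and 38.8% as lower, so a passing gene is common in this comparison. All 38 members passed the filter on low counts. Their median control level was 121 CPM, against 20.4 CPM over all tested genes, and comparisons with all tested genes were not matched for level. The median absolute log2 fold change was 0.71 in the fatty acid arm and 0.24 in the sterol arm, against 0.65 over all tested genes. The signed medians were 0.33 and 0.09, against -0.04. The difference between these medians, sterol minus fatty acid, was -0.24, and -0.11 with the 20 highest genes of the table left out, Scd2 among them. The 3 control and 3 labelled libraries did not overlap for 35 of the 38 genes, as for 76.1% of all tested genes, and the exceptions were Fdps, Srebf2 and Me1.

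**Figure D1:**
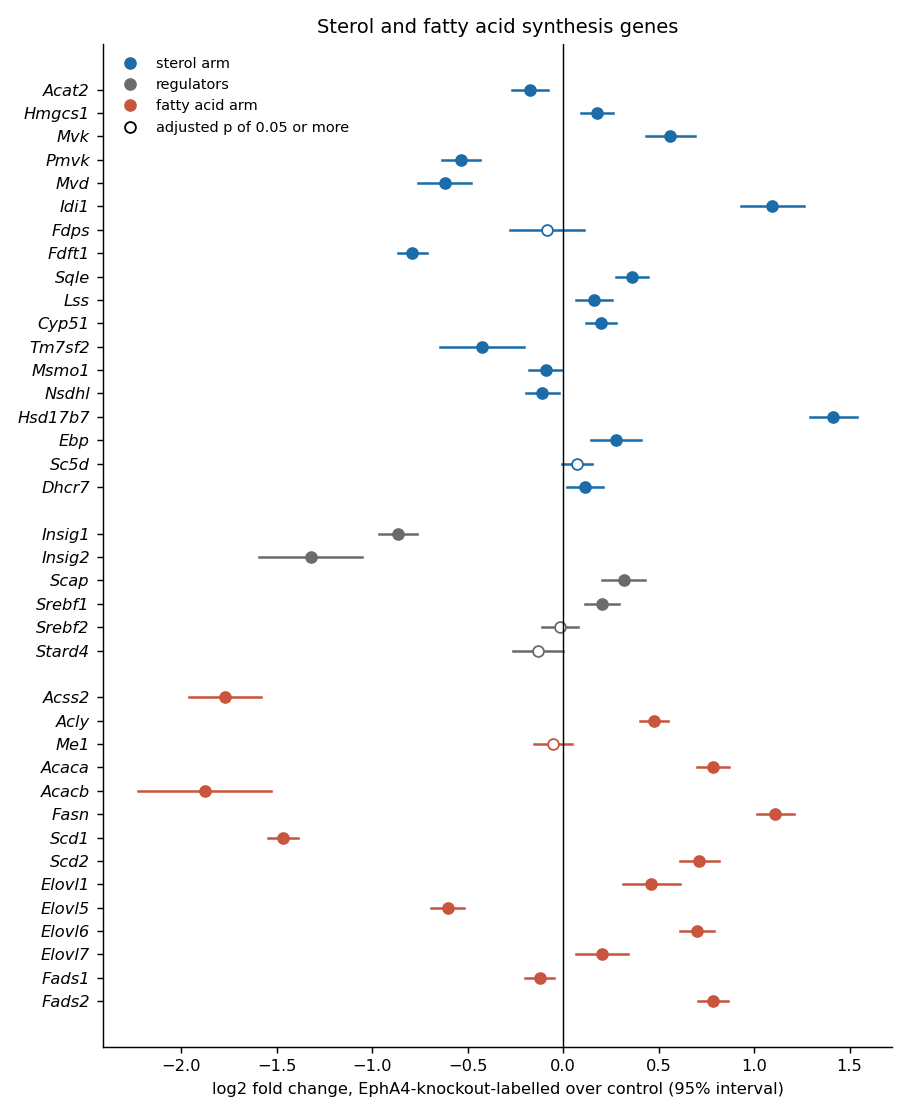
Log2 fold change of each gene, libraries labelled EphA4 knockout over control, with 95% intervals from edgeR (3 libraries a group). Filled points passed an adjusted p of 0.05; points of the fatty acid arm reach from -1.88 for Acacb to 1.11 for Fasn, and among the sterol genes Hsd17b7, Idi1 and Fdft1 lie farthest from 0.

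The reads of all sterol arm genes together amounted to 2199, 2151 and 2194 CPM in control and 2229, 2272 and 2200 CPM in the labelled libraries. Those of the fatty acid arm were 4773, 4821 and 4728 CPM in control and 7288, 7250 and 7067 CPM in the labelled libraries. The sterol sum was thus 1.02 times its control level and the fatty acid sum 1.51 times. Scd2 alone held 41.4% of the fatty acid sum in control, and without it the fatty acid sum was 2796 ± 37.3 CPM in control and 3958 ± 22.6 CPM in the labelled libraries (SD, n = 3 each), or 1.42 times. Per kilobase of exon, the sterol sum was 0.97 times and the fatty acid sum 1.43 times its control level. These sums are descriptions over chosen genes and carry no test of their own.

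In the sterol arm, the early steps to HMG-CoA and mevalonate moved little and in both directions. Acat2, which joins acetyl-CoA units, had 153, 147 and 148 CPM in control and 133, 138 and 126 CPM in the labelled libraries, with a log2 fold change of -0.17 (adjusted p = 0.00487 in edgeR). This gene shares 45.9% of its 50-base stretches with Acat3 and Tcp1. It no longer passed without EphA4 knockout replicate 3 (log2 fold change -0.08), and also without control replicate 1 or 2 or EphA4 knockout replicate 1. The HMG-CoA synthase gene Hmgcs1 rose from 250 ± 4.33 to 283 ± 10.5 CPM (SD, n = 3 each; log2 fold change 0.18, adjusted p = 0.00224 in edgeR), and did not pass when low counts were left unfiltered. The gene model Gm48342 overlaps 12.1% of the exon length of Hmgcs1 and shares 13.6% of its 50-base stretches. Gm48342 had at most 34 counts in a library.

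The kinases and the decarboxylase that turn mevalonate into isoprene units split. Mvk, the mevalonate kinase, had 43.6, 41.2 and 42.7 CPM in control and 65.4, 63.8 and 59.1 CPM in the labelled libraries, 1.48-fold higher (log2 fold change 0.56, SE 0.06, adjusted p = 1.88e-05 in edgeR). The next enzymes fell. Pmvk, the phosphomevalonate kinase, had 125, 117 and 122 CPM in control and 81.2, 82.8 and 87.1 CPM in the labelled libraries (log2 fold change -0.54). Mvd, the decarboxylase, had 128, 109 and 120 CPM in control and 76.0, 79.9 and 75.7 CPM in the labelled libraries (log2 fold change -0.62). Idi1, the isomerase of the isoprene unit, rose 2.14-fold, with 31.0, 32.5 and 30.4 CPM in control and 61.1, 66.1 and 73.3 CPM in the labelled libraries (log2 fold change 1.10, SE 0.07). In each of these 4 genes the labelled libraries lay wholly to 1 side of the control libraries. Idi1 shares 30.5% of its 50-base stretches with other gene models, among them the pseudogene-like Gm13502 and Gm35570, which had 170 and 105 counts in EphA4 knockout replicate 3 against at most 38 and 0 elsewhere. Without that library Idi1 stood at 1.08 on the log2 scale.

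Farnesyl diphosphate is the branch point to sterols, prenyl groups and ubiquinone. Fdps, which makes it, had 19.4, 17.7 and 20.2 CPM in control and 19.1, 17.7 and 17.2 CPM in the labelled libraries, and the groups overlapped (log2 fold change -0.08, 95% interval -0.28 to 0.11). The gene model Gm43738 overlaps 26.7% of the exon length of Fdps on the same strand and had 0 counts in all 6 libraries. Fdps also shares sequence with Gm3571, Gm5873 and Gm8163. These had 479, 261 and 123 counts in EphA4 knockout replicate 3 beside 632 counts of Fdps itself. For both reasons the level of Fdps is uncertain. Fdft1, the squalene synthase that commits the flow to sterols, had 182, 177 and 184 CPM in control and 104, 106 and 104 CPM in the labelled libraries. It was 1.73-fold lower (log2 fold change -0.79, SE 0.03, adjusted p = 9.62e-08 in edgeR), the deepest fall of the sterol arm. Its exons overlap those of Ctsb on the opposite strand over 18.3% of their length, and it shares 30.7% of its 50-base stretches with Ctsb and Gm6781. Ctsb had 17017, 15954 and 18562 counts in control and 4032, 4119 and 4149 in the labelled libraries, and its part in the Fdft1 value was not tested.

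Squalene is then oxidised, closed into lanosterol and trimmed to cholesterol. Sqle, the epoxidase that is a known control point, had 134, 138 and 138 CPM in control and 180, 178 and 169 CPM in the labelled libraries (log2 fold change 0.36, SE 0.04). Lss, the cyclase, and Cyp51, which demethylates lanosterol, rose by smaller amounts (log2 fold changes 0.16 and 0.20), and Lss did not pass when low counts were left unfiltered. Hsd17b7, a reductase of the demethylation complex, changed most in this arm. Its levels were 26.1, 27.9 and 26.8 CPM in control and 72.5, 74.0 and 68.7 CPM in the labelled libraries, 2.66-fold higher (log2 fold change 1.41, SE 0.05, adjusted p = 5.88e-08 in edgeR). The partners of Hsd17b7 in removing the methyl groups changed little, Msmo1 going from 289 ± 6.94 to 271 ± 8.75 CPM and Nsdhl from 76.7 ± 0.266 to 71.1 ± 1.14 CPM (SD, n = 3 each). Their falls (log2 fold changes -0.09 and -0.11, adjusted p = 0.0493 and 0.0302 in edgeR) were lost on leaving out any 1 of the 6 libraries, and without EphA4 knockout replicate 3 they were -0.0088 and -0.05.

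Tm7sf2, a sterol reductase, fell from 28.4 ± 2.97 to 21.1 ± 1.74 CPM (SD, n = 3 each; log2 fold change -0.43), and its exons overlap those of Vps51 over 12.1% of their length. Ebp, the sterol isomerase, rose (log2 fold change 0.28). Dhcr7, which makes cholesterol itself, rose by 0.11 on the log2 scale. It did not pass without control replicate 2, without EphA4 knockout replicate 1 or 2, or with low counts left unfiltered. Its log2 fold change on leaving out 1 library ran from 0.12 to 0.197, so it did not shrink, and was highest without EphA4 knockout replicate 3. Sc5d, the desaturase before it, had 120, 122 and 122 CPM in control and 124, 131 and 127 CPM in the labelled libraries, without overlap, and did not pass (log2 fold change 0.07, 95% interval -0.01 to 0.15). It passed as higher with relative log expression factors, with the 20 highest genes left out, and without control replicate 1 or 3 or EphA4 knockout replicate 3. Without EphA4 knockout replicate 3 the sterol arm had 10 genes higher and 4 lower, and 4 were also lower without control replicate 1 or 2 or EphA4 knockout replicate 1.

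**Figure D2:**
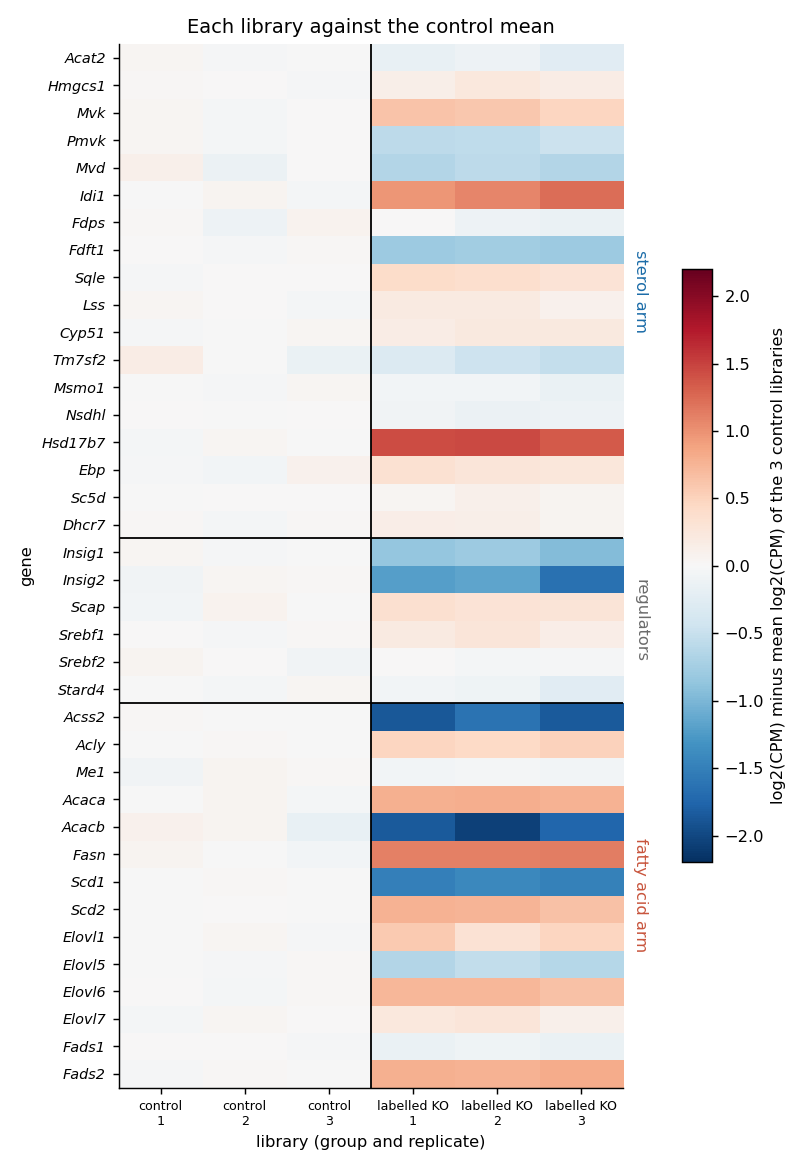
Log2 CPM of each gene (rows) in each library (columns) minus the mean log2 CPM of the 3 control libraries, red for higher and blue for lower. The 3 labelled libraries resemble each other in nearly every row; Insig2, at 15.7 CPM in EphA4 knockout replicate 3 against 21.1 and 21.98 CPM in the other 2, has the widest spread among them for its level (a coefficient of variation of 17.5%).

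Among the regulators, both Insig genes fell. Insig1, itself a well-known SREBP target, had 257, 246 and 247 CPM in control and 138, 144 and 129 CPM in the labelled libraries. The fall was 1.82-fold (log2 fold change -0.87, SE 0.04, adjusted p = 3.08e-07 in edgeR). Insig2 had 46.3, 50.8 and 50.1 CPM in control and 21.1, 21.98 and 15.7 CPM in the labelled libraries, 2.502-fold lower (log2 fold change -1.32, SE 0.12), and -1.13 on the log2 scale without EphA4 knockout replicate 3. The groups did not overlap for either gene.

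The overlapped exons of Scap, 13.2% of their length, lie against a gene model with at most 14 counts. Scap, the escort protein that Insig holds back, rose from 59.2 ± 2.76 to 73.7 ± 1.67 CPM (SD, n = 3 each; log2 fold change 0.32, adjusted p = 0.000352 in edgeR). Srebf1 had 134, 130 and 135 CPM in control and 153, 160 and 147 CPM in the labelled libraries (log2 fold change 0.20, SE 0.04, adjusted p = 0.00149 in edgeR). A count over the gene does not separate its isoforms. Srebf2 had 355, 341 and 321 CPM in control and 342, 330 and 334 CPM in the labelled libraries, and the groups overlapped (log2 fold change -0.02, 95% interval -0.11 to 0.08). Stard4, a cytosolic cholesterol carrier, had 94.8, 92.0 and 98.1 CPM in control and 91.3, 89.3 and 79.6 CPM in the labelled libraries and did not pass (log2 fold change -0.13, 95% interval -0.26 to -0.002), although it passed as lower with no filter on low counts. Without EphA4 knockout replicate 3 its log2 fold change was -0.02. SREBP protein, its cleavage and lipid levels were not measured, so these are transcript levels of the regulators and no measure of their activity.

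In the fatty acid arm, the sources of cytosolic acetyl-CoA went opposite ways. Acly, which makes it from citrate, had 364, 372 and 364 CPM in control and 512, 498 and 519 CPM in the labelled libraries, 1.39-fold higher (log2 fold change 0.48, SE 0.03). Acss2, which makes it from acetate, had 38.3, 37.7 and 37.6 CPM in control and 10.4, 12.3 and 10.5 CPM in the labelled libraries. The fall was 3.42-fold (log2 fold change -1.77, SE 0.08, adjusted p = 1.77e-07 in edgeR), with a wide gap between the groups. Me1, which supplies NADPH, had 111, 123 and 119 CPM in control and 112, 115 and 113 CPM in the labelled libraries, overlapping (log2 fold change -0.05, 95% interval -0.15 to 0.05). Me1 shares 32.8% of its 50-base stretches with other gene models, none of which had over 116 counts in a library.

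The carboxylases that make malonyl-CoA split as well. Acaca, the cytosolic form that feeds synthesis, had 164, 172 and 160 CPM in control and 285, 288 and 282 CPM in the labelled libraries, 1.72-fold higher (log2 fold change 0.78, SE 0.04). Acaca shares 52.6% of its 50-base stretches with Gm5182, whose counts amounted to 1.78% of those of Acaca. How shared reads were counted is not known, so this share does not bound the reads lost from Acaca. Acacb, the mitochondrial form whose malonyl-CoA restrains fatty acid oxidation, had 13.9, 13.6 and 11.7 CPM in control and 3.64, 3.14 and 3.86 CPM in the labelled libraries, 3.68-fold lower (log2 fold change -1.88, SE 0.15). Fasn, the synthase that builds palmitate, had 741, 706 and 676 CPM in control and 1522, 1517 and 1551 CPM in the labelled libraries (2.16-fold, log2 fold change 1.11, SE 0.04, adjusted p = 6.71e-08 in edgeR). For Fasn and Acaca every labelled library lay above every control library, and for Acacb every one lay below.

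The desaturases, too, went opposite ways. Scd1, which turns saturated into monounsaturated fatty acids, had 257, 261 and 255 CPM in control and 91.0, 96.5 and 92.1 CPM in the labelled libraries, 2.77-fold lower (log2 fold change -1.47, SE 0.03). Its paralog Scd2 had 1958, 2001 and 1975 CPM in control and 3342, 3306 and 3083 CPM in the labelled libraries, 1.64-fold higher (log2 fold change 0.71, SE 0.05). Scd1 and Scd2 share under 5% of their 50-base stretches with other gene models, 4.66% and 4.01%. Fads2, which starts the desaturation of polyunsaturated fatty acids, had 367, 381 and 373 CPM in control and 639, 634 and 660 CPM in the labelled libraries (1.72-fold, log2 fold change 0.79, SE 0.03). Fads1, which acts later on the same fatty acids, went from 378 ± 4.11 to 347 ± 7.51 CPM (SD, n = 3 each; log2 fold change -0.12, adjusted p = 0.00755 in edgeR), a call lost on leaving out any 1 of the 6 libraries, with values from -0.11 to -0.06, the smallest without EphA4 knockout replicate 3.

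The elongases also divided. Elovl6, which extends palmitate, had 121, 116 and 122 CPM in control and 198, 199 and 187 CPM in the labelled libraries (1.63-fold, log2 fold change 0.70, SE 0.04). Elovl5, which extends polyunsaturated fatty acids, had 169, 167 and 172 CPM in control and 108, 116 and 110 CPM in the labelled libraries (1.52-fold lower, log2 fold change -0.61, SE 0.04). Elovl1, which makes very long saturated chains, rose from 53.3 ± 1.28 to 73.3 ± 6.34 CPM (SD, n = 3 each; log2 fold change 0.46). Elovl7 rose from 36.2 ± 0.963 to 41.6 ± 2.27 CPM (SD, n = 3 each; log2 fold change 0.20) and did not pass when low counts were left unfiltered. By size, 3 of the 38 genes (2 sterol genes and 1 fatty acid gene) rose by at least 1 on the log2 scale, as did 10.3% of all tested genes. Another 4 (3 fatty acid genes and 1 regulator) fell by as much, as did 20.1%. Over the 38 genes neither share is above the background, and their median absolute log2 fold change of 0.44 is below that of all tested genes, 0.65. This comparison was not matched for expression level.

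Ratios of counts within a library do not depend on scaling. The log2 ratio of Scd1 to Scd2 was -2.94 ± 0.01 in control and -5.12 ± 0.07 in the labelled libraries (SD, n = 3 each), a shift of -2.18, or 4.53-fold. Among pairs chosen after their values were seen, and so given with no test, Acaca to Acacb went from 3.66 ± 0.11 to 6.33 ± 0.17, Acly to Acss2 from 3.27 ± 0.03 to 5.53 ± 0.16, Elovl6 to Elovl5 from -0.50 ± 0.02 to 0.81 ± 0.06, and Fads2 to Fads1 from -0.02 ± 0.03 to 0.89 ± 0.06. Of the other pairs, Insig1 to Insig2 went from 2.35 ± 0.11 to 2.82 ± 0.19 and Srebf1 to Srebf2 from -1.35 ± 0.08 to -1.13 ± 0.07. The exact two-sided permutation test over samples gave p = 0.1 for Scd1 to Scd2, Insig1 to Insig2, Srebf1 to Srebf2 and the fatty acid sum to the sterol sum. That is the smallest value that 3 against 3 allows, and it was 0.1 after Benjamini-Hochberg adjustment over these ratios. The fatty acid sum over the sterol sum had log2 ratios of 1.12, 1.16 and 1.11 in control and 1.71, 1.67 and 1.68 in the labelled libraries.

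**Figure D3:**
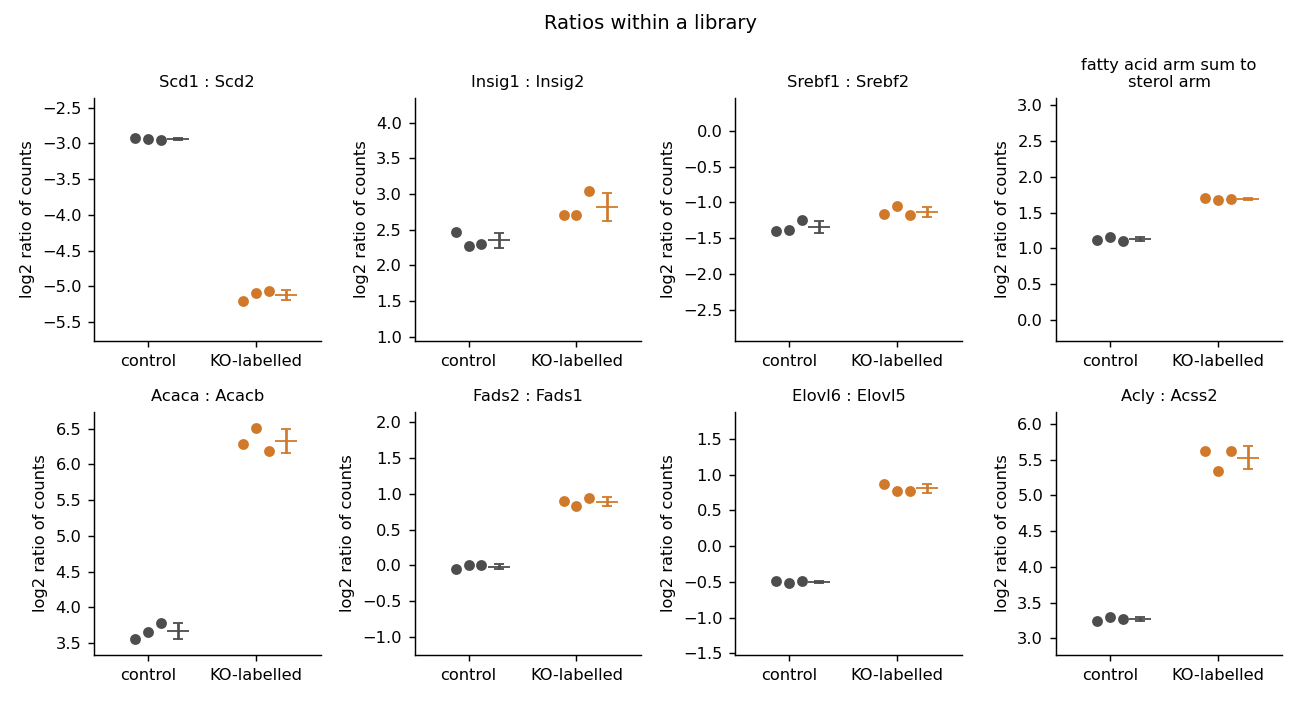
Log2 ratios of raw counts within each library (0.5 counts added to each side), with 1 point per library and mean ± SD beside it; each panel spans the same range of log2 units. The groups are apart in all 8 panels, least for Srebf1 to Srebf2 (lowest labelled -1.18 against highest control -1.25), and the means differ most for Acaca to Acacb, by 2.66.

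Levels can be compared between genes per kilobase of exon. Scd2 was highest in both groups, at 362 CPM per kilobase in control and 594 in the labelled libraries, followed by Fads2 at 113 and 196. Fasn went from rank 8 to rank 3 of the 38, at 64.7 and 140 CPM per kilobase. Scd1 went from rank 12 to rank 27, at 52.7 and 19.1, and Insig1 from rank 3 to rank 11, at 80.8 and 44.4. Srebf2 stood above Srebf1 in both groups, at 47.2 and 46.7 CPM per kilobase against 23.6 and 27.2. Acacb was lowest in both groups, at 1.36 and 0.368. These levels use all annotated exons of a gene, so a gene with many alternative exons is understated. A gene that shares sequence with others, such as Acaca or Fdps, may be understated too, since the counting of shared reads is not known. The ranks of neighbours closer than the spread of replicates (a coefficient of variation of 2.64% in control and 3.57% in the labelled libraries, as medians over the 38 genes) are not resolved.

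SREBP factors bind sterol regulatory elements and commonly act with NF-Y at CCAAT boxes and with Sp1 at GC boxes, so the promoters of the genes were read for those letters. RefSeq promoters on GRCm38.p6, from 250 bases before to 50 after the start, were matched by symbol for 31 of the 38 genes and gave 41 promoters, since some genes have several, which can overlap. Below are 5 of them. Hmgcs1 is shown because it holds an element of the sterol regulatory kind, Hsd17b7 and Fasn as the largest rises of the 2 arms, Insig1 as the regulator and SREBP target that fell, and Acss2 as a member that fell where Fasn rose. Capitals mark TCANNCCAC, CACGTG and CCAAT on either strand, and each sequence reads 5′ to 3′ along its gene.
Hmgcs1, chr13:119690101-119690400, plus strand: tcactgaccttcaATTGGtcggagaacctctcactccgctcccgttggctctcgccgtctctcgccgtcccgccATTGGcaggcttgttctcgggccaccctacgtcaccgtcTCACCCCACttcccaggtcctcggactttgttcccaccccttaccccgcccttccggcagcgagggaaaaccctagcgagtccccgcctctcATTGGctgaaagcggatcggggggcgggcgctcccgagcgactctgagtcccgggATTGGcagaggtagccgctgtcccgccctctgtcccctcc
Hsd17b7, chr1:169969156-169969455, minus strand: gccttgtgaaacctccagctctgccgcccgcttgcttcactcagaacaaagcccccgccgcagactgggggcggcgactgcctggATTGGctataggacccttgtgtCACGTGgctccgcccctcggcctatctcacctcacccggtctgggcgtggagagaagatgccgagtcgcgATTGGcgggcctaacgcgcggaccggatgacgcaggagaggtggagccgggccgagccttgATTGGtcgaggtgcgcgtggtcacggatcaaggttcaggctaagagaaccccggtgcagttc
Insig1, chr5:28071162-28071461, plus strand: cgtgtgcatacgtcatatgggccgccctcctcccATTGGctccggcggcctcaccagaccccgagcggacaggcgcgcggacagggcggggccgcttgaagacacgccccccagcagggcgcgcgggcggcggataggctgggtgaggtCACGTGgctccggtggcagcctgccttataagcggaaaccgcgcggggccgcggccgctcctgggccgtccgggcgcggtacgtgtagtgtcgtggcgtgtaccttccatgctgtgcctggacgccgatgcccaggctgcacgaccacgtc
Fasn, chr11:120824498-120824797, minus strand: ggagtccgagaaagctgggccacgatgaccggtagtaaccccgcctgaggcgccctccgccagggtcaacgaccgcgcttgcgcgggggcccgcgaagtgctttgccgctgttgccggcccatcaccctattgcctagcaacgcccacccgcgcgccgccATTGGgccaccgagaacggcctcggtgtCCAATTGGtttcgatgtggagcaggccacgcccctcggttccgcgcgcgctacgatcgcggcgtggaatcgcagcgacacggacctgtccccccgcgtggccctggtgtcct
Acss2, chr2:155517793-155518092, plus strand: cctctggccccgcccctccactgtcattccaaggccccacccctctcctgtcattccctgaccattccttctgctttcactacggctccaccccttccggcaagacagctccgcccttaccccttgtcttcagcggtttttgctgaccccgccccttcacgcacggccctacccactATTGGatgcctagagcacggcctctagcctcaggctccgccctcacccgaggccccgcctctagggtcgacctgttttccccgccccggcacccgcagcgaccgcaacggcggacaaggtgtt

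The sterol regulatory element of the LDL receptor type, searched as its exact letters, occurred in 0 of the 41 promoters and in 0.0913% of all 32851 promoters of the table, which also holds non-coding genes. The shorter TCACNCCAC, which is contained in TCANNCCAC, occurred in 1 promoter, that of Hmgcs1, 137 bases before the start, and in 1.24% of all promoters. TCANNCCAC occurred in 4 promoters (9.76%), those of Hmgcs1, Acacb, Acly and Elovl5, against 4.18% of all. CACGTG, an E-box that SREBP factors can also bind, occurred in 7 promoters (17.1%, against 7.15%), including those of Hsd17b7 and Insig1. CCAAT occurred in 26 (63.4%, against 37.4%) and GGGCGG in 30 (73.2%, against 35.7%). By gene, CCAAT was found for 12 of the 17 genes called higher that have a promoter and for 10 of the 11 called lower, and GGGCGG for 14 and for 8. In the Fasn promoter a pair of CCAAT matches on opposite strands share 2 bases. Both strands were searched, a match is no evidence of binding, and the absence of a match says only that these letters are not in this window.

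Genes next to the pathway were counted by list, and each count stands against 32.7% of all tested genes called higher and 38.8% called lower. Of 15 tested genes of sterol uptake, trafficking and efflux, 6 rose and 8 fell, and their median was -0.55 on the log2 scale. The lipoprotein receptor genes Lrp1 and Vldlr fell from 89.3 ± 5.98 to 5.99 ± 0.42 CPM and from 41.6 ± 4.19 to 10.4 ± 1.27 CPM (SD, n = 3 each). Other receptor genes of this list, Lrp8 and Scarb1, named after their values were seen, rose (log2 fold changes 0.70 and 0.12). Abcg1, a sterol exporter, had 98, 85 and 134 counts in control and 4, 1 and 3 counts in the labelled libraries, and Mylip, a ligase that degrades lipoprotein receptors, rose (log2 fold change 1.64). Abca1, the other main exporter, had 3 counts in all 6 libraries and was not tested.

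Among 12 other SREBP regulators 9 rose and 2 fell, where 32.7% and 38.8% of all tested genes did, or 8 and 2 of 11 without Ubxn8, which was listed in error in place of Faf2. Erlin1, which binds Insig and SREBP complexes, and Fbxw7, which marks nuclear SREBP for degradation, rose (log2 fold changes 0.55 and 0.80). Lpin1, which restrains nuclear SREBP and makes diacylglycerol, fell from 50.5 ± 3.31 to 11.4 ± 0.9 CPM (SD, n = 3 each). In the isoprenoid branch 7 of 13 rose and 4 fell, with Pdss1 and Pdss2, the chain synthases of ubiquinone, and Zmpste24, a protease of prenylated proteins, higher (log2 fold changes 1.59, 0.63 and 0.98). Rabggta, a subunit of the transferase that prenylates Rab proteins, fell (log2 fold change -0.95).

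Of 21 tested genes that activate fatty acids or build glycerolipids, 8 rose and 7 fell. Acsl5, an acyl-CoA synthetase, rose from 235 ± 5.72 to 395 ± 13.5 CPM and Gpam, which starts glycerolipid synthesis, from 23.1 ± 0.706 to 45.01 ± 2.95 CPM (SD, n = 3 each). Agpat4 fell from 13.9 ± 0.883 to 1.33 ± 0.264 CPM, and Dgat1, which closes triglyceride synthesis, fell (log2 fold change -0.77). Of 13 tested further elongation and desaturation genes 5 rose and 6 fell. Fads6 had 99, 61 and 90 counts in control and 0, 0 and 0 counts in the labelled libraries, and a count of 0 allows up to 3 in a library. Mlxipl, which encodes the carbohydrate-responsive factor ChREBP, had 55, 15 and 37 counts in control and 1, 3 and 0 counts in the labelled libraries, and Hacd1, an elongation dehydratase that shares 31.1% of its 50-base stretches with other gene models, fell (log2 fold change -1.41). Scd4, a further paralog of Scd1, rose (log2 fold change 2.18), from a mean of 0.292 CPM. The citrate carrier Slc25a1, which exports the substrate of Acly and was picked after its values were seen, fell from 122 ± 4.54 to 68.0 ± 4.06 CPM (SD, n = 3 each).

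In fatty acid oxidation 16 of 19 tested genes fell and 2 rose. Their median was -0.79 on the log2 scale, and 38.8% of all tested genes were called lower. Acads and Acaa2, enzymes of the mitochondrial cycle, fell from 50.9 ± 2.05 to 15.4 ± 2.80 CPM and from 34.0 ± 2.24 to 12.1 ± 1.01 CPM (SD, n = 3 each). Ppargc1a, a coactivator of oxidative genes, had 322, 299 and 362 counts in control and 0, 0 and 7 counts in the labelled libraries, and Cpt1c fell from a low level (log2 fold change -1.86). The genes that rose, named after their values were seen, were Hadha and Hadhb, which encode the subunits of the trifunctional protein (log2 fold changes 0.31 and 0.66). Of 8 tested lipid droplet genes 3 rose and 5 fell. Plin2, which coats droplets, rose from 155 ± 3.44 to 285 ± 12.8 CPM and Fitm2, which helps form them, from 21.4 ± 0.373 to 36.3 ± 3.21 CPM, while Lipe, a lipase whose exons overlap another gene model over 15.6% of their length, and Hilpda, an inhibitor of lipolysis, fell (log2 fold changes -1.03 and -0.82).

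**Figure D4:**
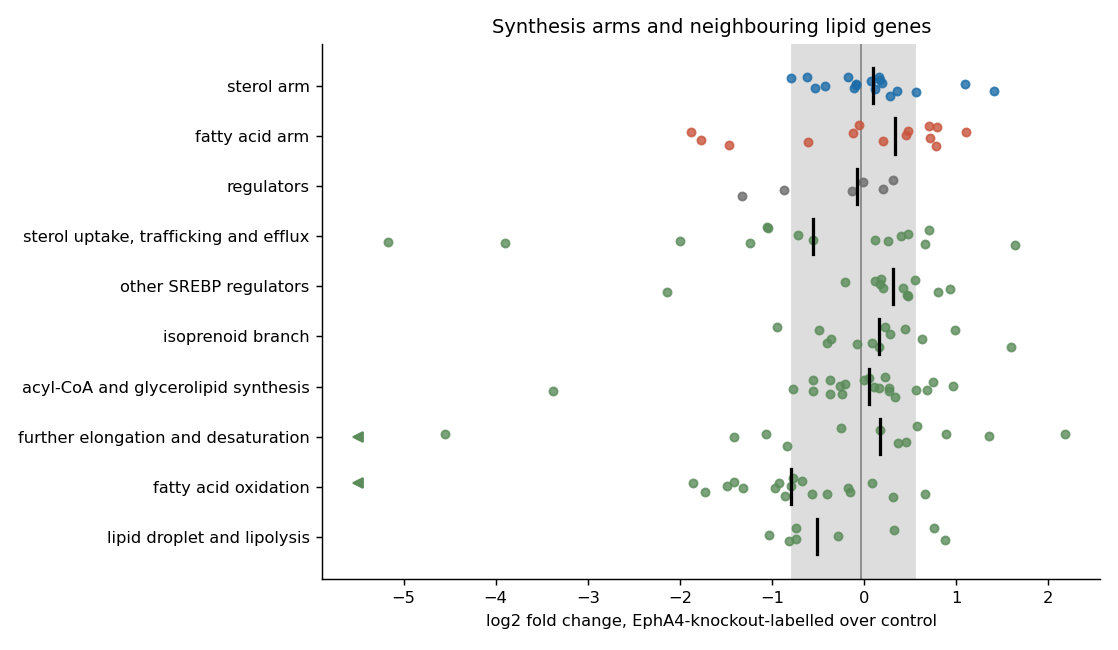
Log2 fold change of every tested gene in the synthesis arms and in the neighbouring lists, 1 point a gene, with a black bar at each median; triangles are genes that lie below the range of the axis. The grey band and line are the quartiles and median of all 15199 tested genes (-0.78, -0.04 and 0.55), and the median of fatty acid oxidation, -0.79, lies at the lower edge of the band.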

How the data were processed

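RNA of 6 MOC2 samples was measured, and what the authors deposited is 1 table with the raw counts of each gene symbol. The submitters' processing notes name STAR and GRCm39 without versions, while for the counting tool, its strand setting and its annotation the sources used here give nothing. All 55418 symbols occur in GENCODE M21, made on an earlier build (GRCm38), which gave exon lengths and overlaps. Reads of overlapping or near-identical genes cannot be told apart. Whether shared reads were counted is not known, so a low count of the other gene sets no bound on the reads lost.

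Genes were filtered with filterByExpr (15199 of 28042 with any count), scaled by TMM and tested with edgeR 4.0.16 in R 4.3.3 (glmQLFit and glmQLFTest, group only, two-sided, Benjamini-Hochberg over all tested genes, threshold 0.05). SEs came from the fold change on the log2 scale and the root of its F statistic. Totals of 35115926 to 41775031 make 1 count 0.0239 to 0.0285 CPM. Nothing says that the samples of a group are separate cultures, so p-values measure only sample-to-sample spread here, possibly technical. Alternatives were other scalings and filters, limma-voom 3.58.1, DESeq2 1.42.0, a replicate block, other thresholds and leaving out each library. Those added after the data were seen left out members with over 10% of exon bases overlapped or of 50-base stretches shared, or Scd2. Fits were tested on simulated data. Figures used matplotlib 3.10.9.

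Named were Epha4, all 38 members and, from each further list, at most 4 called genes of largest change, except where stated. The members and lists were chosen with earlier results of these data known.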

Additional observations from a re-analysis of the deposited data

How the results depend on the processing

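Of 38 genes, 29 kept their direction and side of the threshold on leaving out each library in turn, and 25 did so under every alternative except the stricter thresholds. Against a fold of 1.5 (glmTreat), 2006 genes were higher and 3467 lower over all genes, 2 and 1 in the sterol arm, 5 and 3 in the fatty acid arm, and 0 regulators were higher. Sterol genes called lower numbered 4 to 5 on leaving out 1 library. With no filter on low counts 6 sterol genes were higher and 7 lower, and with relative log expression factors 10 and 5. Without members that overlap other gene models over more than 10% of their exon bases, or share more than 10% of their 50-base stretches with them, 4 sterol genes were lower and 1 regulator higher. The sterol median minus the fatty acid median, -0.24, was -0.11 with the 20 highest genes left out, Scd2 being 1 of them, and -0.27 to -0.20 on leaving out 1 library. The log2 fold changes of Fdps, Srebf2 and Me1, none of them called, changed sign. On leaving out 1 library they ran from -0.1034 to 0.0055, from -0.003 to 0.0656 and from -0.0469 to 0.0113. Srebf2 was also 0.0162 with relative log expression factors, 0.0163 with DESeq2, 0.0197 with the 20 highest genes left out and 0.0007 with the filter of 5 CPM. The cause was not tested. The sample numbers did not pair the samples (correlations of deviations -0.0029, 0.029 and 0.0083, control replicate 1 not being closest to its own number), and with the replicate block the sterol arm had 9 genes higher and 5 lower and the fatty acid arm 8 and 5, Msmo1 and Nsdhl no longer passing. These 2 also did not pass with relative log expression factors, DESeq2, the 5 CPM filter or the 20 highest genes left out, and Dhcr7 did not pass with upper-quartile factors. Among the lists, Elovl2, Decr1 and Cideb had 0 counts in all 6 libraries and Abca1 had 3, and whether depth, counting or lack of transcript gave these values was not tested.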
